A study of Homo sapiens with 4 samples.

Results

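The hypoxia-inducible factor (HIF) subunits and the genes that tie them to oxygen were examined in UM-UC-3, a long-established line of human urothelial carcinoma cells. The set was fixed by name: the alpha subunits HIF1A and EPAS1, the beta subunit ARNT, the prolyl hydroxylases EGLN1, EGLN2 and EGLN3, the asparaginyl hydroxylase HIF1AN, and the ubiquitin ligase subunits VHL and CUL2. All 9 had a row among the 13743 genes of the deposited table, and all 9 lay above the mean of 1 CPM (read counts scaled to the same total in every library) used to select the 12587 tested genes. The level was measured by cap analysis of gene expression (CAGE), in which capped RNA 5' ends are captured, so that a read marks where a transcript starts. A cisplatin-resistant subline, induced from this line and kept in medium with 5 µM cisplatin, gave 2 samples, and the wild type line it came from gave 2 samples. Whether wild type cells also received the drug is not stated, so resistance and the presence of cisplatin cannot be told apart. All resistant samples come from the same subline, and no label says that the replicates of a group came from separate cultures. The p-values therefore cover the spread among these 4 samples alone, which may be technical. In such bulk RNA, fewer cells with a transcript and less of it per cell cannot be told apart.

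HIF is a dimer of an oxygen-regulated alpha subunit and the constitutive beta subunit ARNT. When oxygen is present, EGLN enzymes hydroxylate prolines of the alpha subunit, VHL recognises the hydroxylated protein, and a ligase built on CUL2 marks it for the proteasome. HIF1AN hydroxylates an asparagine of the alpha subunit and so blocks its contact with the coactivators p300 and CBP. This control acts on protein, which CAGE does not measure. The transcripts of the sensors are regulated as well: EGLN1 and EGLN3 are known HIF target genes, and loss of VHL is a classic event in clear cell kidney cancer.

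Because CAGE counts start sites, the sequences just upstream of the annotated starts are shown for 6 of the genes. They are the bases before the RefSeq start on GRCh38.p14, on the strand of the gene, 5' to 3', and capitals mark the HIF-binding cores ACGTG and GCGTG on either strand. The RefSeq starts were matched by symbol and were not compared with the start sites behind the table, so whether the counted transcripts start there was not tested. For HIF1A (chr14:61695263-61695512, plus strand) and EGLN2 (chr19:40798941-40799190, plus strand) the more upstream of 2 annotated starts is shown. The others are EPAS1 (chr2:46297157-46297406, plus strand), ARNT (chr1:150876600-150876849, minus strand), EGLN1 (chr1:231422288-231422537, minus strand) and HIF1AN (chr10:100535693-100535942, plus strand).
HIF1A: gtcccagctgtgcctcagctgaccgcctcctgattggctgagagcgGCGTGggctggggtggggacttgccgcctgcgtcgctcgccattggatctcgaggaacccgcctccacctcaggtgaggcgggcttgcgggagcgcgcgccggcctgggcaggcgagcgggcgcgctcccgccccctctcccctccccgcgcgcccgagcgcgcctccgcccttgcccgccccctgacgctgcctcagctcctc
EPAS1: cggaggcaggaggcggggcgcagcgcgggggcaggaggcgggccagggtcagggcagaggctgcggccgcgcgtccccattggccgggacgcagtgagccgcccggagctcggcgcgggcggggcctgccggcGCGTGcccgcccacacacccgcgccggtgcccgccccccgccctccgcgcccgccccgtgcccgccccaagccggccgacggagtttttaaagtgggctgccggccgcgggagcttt
ARNT: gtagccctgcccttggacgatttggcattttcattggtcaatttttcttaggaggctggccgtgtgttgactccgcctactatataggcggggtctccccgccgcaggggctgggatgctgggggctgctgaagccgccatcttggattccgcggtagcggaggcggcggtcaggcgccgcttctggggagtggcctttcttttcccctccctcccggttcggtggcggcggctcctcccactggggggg
EGLN1: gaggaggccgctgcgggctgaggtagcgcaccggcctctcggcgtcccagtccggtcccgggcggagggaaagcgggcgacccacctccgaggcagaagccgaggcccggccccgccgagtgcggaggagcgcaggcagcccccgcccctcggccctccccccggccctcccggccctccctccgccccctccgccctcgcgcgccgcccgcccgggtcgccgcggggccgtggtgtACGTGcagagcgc
EGLN2: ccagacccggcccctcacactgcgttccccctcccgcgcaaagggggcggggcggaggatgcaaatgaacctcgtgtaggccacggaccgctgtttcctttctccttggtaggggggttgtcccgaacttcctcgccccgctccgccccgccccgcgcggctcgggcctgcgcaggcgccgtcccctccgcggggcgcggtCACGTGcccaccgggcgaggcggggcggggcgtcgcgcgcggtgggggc
HIF1AN: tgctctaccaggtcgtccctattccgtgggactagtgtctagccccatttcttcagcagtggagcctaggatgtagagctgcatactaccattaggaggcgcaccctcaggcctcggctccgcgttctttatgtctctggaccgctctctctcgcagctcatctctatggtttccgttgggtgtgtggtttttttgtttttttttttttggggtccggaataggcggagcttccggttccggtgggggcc

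The table of promoters held 12 windows of 250 bases for 8 of the genes, and VHL was the gene without one. A core was found in 4 of the 12 windows, 1 each of HIF1A, EPAS1, EGLN1 and EGLN2, against 56.5% of 12981 windows of tested genes and 43.2% of 35116 windows in all. The EGLN1 core, ACGTG, starts at position -13 from the annotated start. The EGLN2 cores are ACGTG on both strands and overlap in the palindrome CACGTG. The HIF1A and EPAS1 cores are GCGTG, starting at positions -204 and -117. A core is a match of letters only, and the windows of ARNT, EGLN3, HIF1AN and CUL2 held none.

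The libraries held an estimated 17800000 to 21200000 reads in the listed genes, taking the step between the low values of a column as 1 read. Each of the 9 genes then rested on 250 to 2346 reads per sample, a counting error (1 Poisson SD) of 2.1% to 6.3%, which covers counting only. Resistant and wild type samples differed in 55.2% of the tested genes by limma on log2(CPM + 1) at an adjusted p under 0.05 (Benjamini-Hochberg over all tested genes), with 33.5% higher in the resistant samples and 21.6% lower, and the groups did not overlap in 78.5%. This split depends on scaling: it was 4221 higher to 2724 lower on the deposited values and 3419 to 3581 with trimmed-mean (TMM) factors, with a median log2 fold change of all genes of 0.09 and -0.01. Without resistant replicate 1 it was 2556 to 1729, and without resistant replicate 2 it was 2643 to 1636. Of 13 urothelial markers, KRT7, KRT8 and KRT18 were tested, TP63 read 0 CPM in both resistant samples and 0.49 and 0.99 CPM in wild type, and the other 9 had no row analysed here. Summed urothelial markers were 144 and 139 CPM in resistant against 408 and 403 CPM in wild type samples. KRT8 and KRT18 were lower (log2 fold change -1.06 and -1.80) and KRT7 was higher (0.78). Of 5 mesenchymal markers, ZEB2 and CDH2 were higher (1.51 and 1.08), ZEB1 was lower (-0.97), and VIM, between 1336 and 1432 CPM in every sample, did not pass the test. FN1, below the level tested, averaged 0.455 CPM in resistant and 1.38 CPM in wild type cells. Of 7 leukocyte markers, CD68 and CORO1A had rows, with a sum of 28.4 and 30.4 CPM in resistant and 72.2 and 52.9 CPM in wild type samples, and PTPRC, which defines leukocytes, had no row analysed here. CORO1A read 0.42 to 0.66 CPM, so this sum is nearly all CD68 and does not show a difference in leukocytes. Of 6 fibroblast markers, 3 had rows, with a sum of 2.21 and 2.58 CPM in resistant and 0.87 and 0.94 CPM in wild type samples. None of 5 endothelial markers had a row analysed here. The part of these marker differences in the results below was not tested.

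Of the 9 genes, 3 were higher (EPAS1, VHL and HIF1AN) and 5 were lower (HIF1A, ARNT, EGLN1, EGLN3 and CUL2) in resistant cells, and EGLN2 did not pass the test. The EGLN3 row is counted here although it holds the same values as that of another gene, SPTSSA. The share called, 8 of 9, stands beside the 55.2% of all tested genes, and the groups did not overlap in the same 8 genes, beside 78.5% of all. The 9 genes and the pathway lists below were chosen with earlier results of these data known. No share called, here or below, is therefore an unbiased comparison with all tested genes. The changes were of moderate size. The median absolute log2 fold change was 0.40, against 0.32 over all tested genes, and the largest, that of EPAS1, ranked 1541 of 12587 by size. The count of 3 higher genes held in all 14 alternatives; that of 5 lower genes was 2 without either resistant sample, 3 without wild type replicate 1 and 3 without the trend in the variance.

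**Figure D1:**
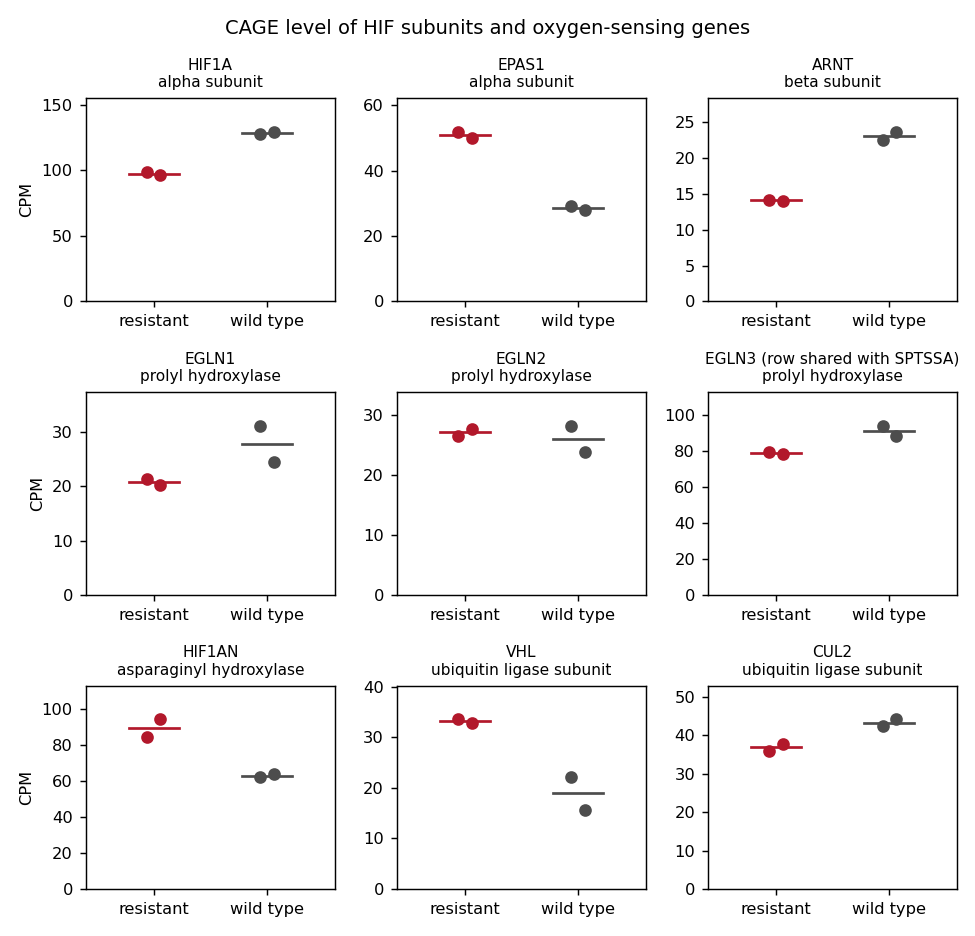
CAGE level in CPM (vertical axes, each from 0) of the 9 genes in the 2 cisplatin-resistant samples (red) and the 2 wild type samples (grey); each point is a sample and each bar the group mean. EPAS1, VHL and HIF1AN lie higher in both resistant samples, HIF1A and ARNT lower, and EGLN2 overlaps between the groups.

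The alpha subunits moved in opposite directions. HIF1A (ENSG00000100644.17), the more abundant and broadly expressed one, read 98.3 and 96.1 CPM in the resistant samples, against 127 and 129 CPM in wild type. EPAS1 (ENSG00000116016.14), which encodes HIF-2 alpha, read 51.9 and 50.1 CPM in the resistant samples, against 29.3 and 28.0 CPM in wild type. In both genes the replicates lay close together and the groups did not overlap. HIF1A averaged 97.2 ± 1.54 CPM in resistant and 128 ± 1.40 CPM in wild type cells (SD, n = 2 each), a ratio of 0.758 (log2 fold change -0.40, standard error 0.06; limma, adjusted p = 0.00116). EPAS1 averaged 51.0 ± 1.27 CPM in resistant and 28.6 ± 0.926 CPM in wild type cells (SD, n = 2 each), a ratio of 1.78 (log2 fold change 0.81, standard error 0.08; limma, adjusted p = 7.72e-05). Both calls held in all 14 alternatives, HIF1A between -0.50 and -0.38 and EPAS1 between 0.68 and 0.84 on the log2 scale.

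ARNT (ENSG00000143437.21), the shared partner of both alpha subunits, fell. It read 14.2 and 14.0 CPM in the resistant samples, against 22.5 and 23.7 CPM in wild type. The resistant replicates almost coincide and both lie below both wild type samples. The means were 14.1 ± 0.0849 CPM in resistant and 23.1 ± 0.806 CPM in wild type cells (SD, n = 2 each), a ratio of 0.61 (log2 fold change -0.67, standard error 0.09; limma, adjusted p = 0.000498).

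Ratios within a sample do not depend on how samples are scaled to each other. EPAS1 made up 34.6% and 34.3% of the summed alpha subunit CPM in the resistant samples, against 18.7% and 17.8% in wild type. HIF1A exceeded EPAS1 by a ratio of 1.89 and 1.92 in resistant and of 4.34 and 4.62 in wild type samples, so HIF1A remained the higher of the pair in each sample. Unlike these ratios, the sum of both alpha subunits depends on scaling. On the deposited values it was 150.2 and 146 CPM in resistant samples. In wild type samples it was 156 and 157 CPM, so the groups did not overlap. With less ARNT, the ratio of summed alpha subunits to ARNT was 10.6 and 10.4 in resistant against 6.94 and 6.64 in wild type samples. HIF1A per ARNT was 6.94 and 6.85 in resistant and 5.64 and 5.46 in wild type samples, higher in resistant cells although HIF1A itself was lower. The groups did not overlap in any of these ratios. An exact two-sided permutation test of 2 against 2 samples gives p = 0.333 for each, the smallest it can give. Levels are compared between genes here on the CPM scale without a length correction, since each captured 5' end gives 1 read whatever the length of its transcript.

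**Figure D2:**
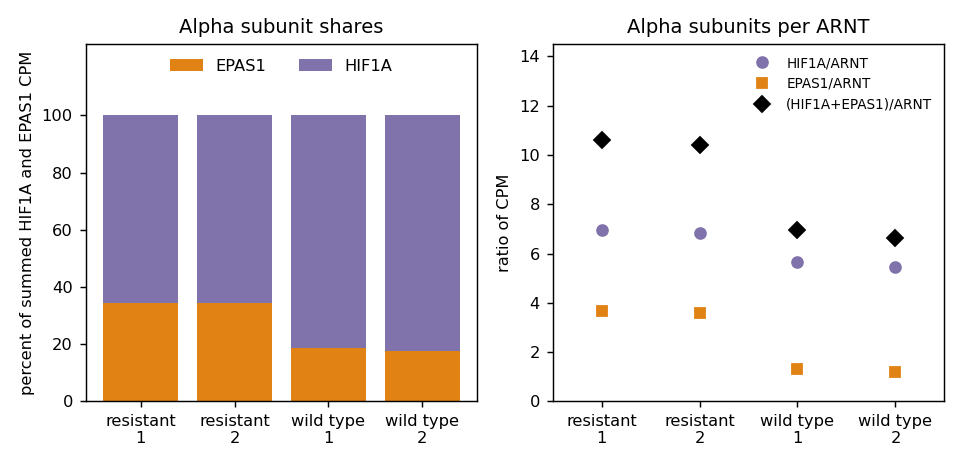
Left, percent of the summed HIF1A and EPAS1 CPM contributed by each gene in each sample (stacked bars). Right, ratios of CPM of HIF1A, EPAS1 and their sum to ARNT in each sample (points); EPAS1 makes up 34.6% and 34.3% of the alpha subunit reads in resistant samples against 18.7% and 17.8% in wild type samples, and the sum per ARNT is 10.6 and 10.4 in resistant samples against 6.94 and 6.64 in wild type samples.

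Among the prolyl hydroxylases, EGLN1 was lower and EGLN2 was not distinguishable. EGLN1 (ENSG00000135766.9), the main HIF prolyl hydroxylase in normal oxygen, read 21.4 and 20.2 CPM in the resistant samples, against 31.2 and 24.4 CPM in wild type (log2 fold change -0.39, standard error 0.12; limma, adjusted p = 0.0232). The groups do not overlap, but the wild type samples differ by more than the gap between the groups. The call ended without resistant replicate 1 (adjusted p = 0.0944), without resistant replicate 2 (0.150) and without wild type replicate 1 (0.0895), where the log2 fold change was -0.22. EGLN2 (ENSG00000269858.6), which acts on HIF and on other substrates, read 26.5 and 27.7 CPM in the resistant samples, against 28.2 and 23.8 CPM in wild type. Its resistant values lie between the wild type values, and the log2 fold change was 0.06 with a 95% interval of -0.17 to 0.30 (limma, adjusted p = 0.631); its sign turned with TMM or median-ratio factors and with quantile normalization. The ratio of EGLN1 to EGLN2 was 0.806 and 0.730 in resistant against 1.10 and 1.03 in wild type samples, again without overlap (exact permutation test, two-sided p = 0.333, the smallest possible). The row of RAB4B-EGLN2, an annotated readthrough gene on the same strand, carried the values of RAB4B and not those of EGLN2.

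The row of EGLN3 (ENSG00000129521.15) cannot be read as the level of this hydroxylase alone. It read 79.5 and 78.2 CPM in the resistant samples, against 94.1 and 88.3 CPM in wild type, and the row of SPTSSA, a small subunit of serine palmitoyltransferase, held the same 4 values. In GENCODE 29 a noncoding EGLN3 transcript begins 418 bases from the SPTSSA start on the same strand, whereas the protein-coding EGLN3 transcripts begin between 239479 and 511530 bases away from it. The table therefore holds no read for EGLN3 that is not also in the SPTSSA row, and none of the other 8 genes shared all its values with another row. The shared row was lower in resistant cells (log2 fold change -0.21, standard error 0.07; limma, adjusted p = 0.0329). That call ended without resistant replicate 1 (adjusted p = 0.161), without resistant replicate 2 (0.202), without wild type replicate 1 (0.063) and without the trend in the variance (0.0868). No share of the summed prolyl hydroxylases is given for this reason.

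HIF1AN (ENSG00000166135.14), also called factor inhibiting HIF, rose. It read 84.6 and 94.4 CPM in the resistant samples, against 62.1 and 64.2 CPM in wild type, and both resistant samples lie above both wild type samples. The means were 89.5 ± 6.94 CPM in resistant and 63.1 ± 1.51 CPM in wild type cells (SD, n = 2 each), a ratio of 1.42 (log2 fold change 0.49, standard error 0.08; limma, adjusted p = 0.000982). Per HIF1A, its level was 0.860 and 0.982 in resistant against 0.488 and 0.497 in wild type samples. HIF1AN overlaps NDUFB8, a respiratory complex I subunit, on the opposite strand in GENCODE 29, and whether counting used the strand is not stated. NDUFB8 read 437.9 and 447 CPM in resistant against 391 and 405 CPM in wild type samples (log2 fold change 0.15; limma, adjusted p = 0.0702); it passed as higher without wild type replicate 2 (adjusted p = 0.0238).

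The ubiquitin ligase subunits differed in direction. VHL (ENSG00000134086.8), the substrate receptor, read 33.5 and 32.8 CPM in the resistant samples, against 22.1 and 15.7 CPM in wild type. The resistant samples agree closely and lie above both wild type samples, which are spread widely. The means were 33.1 ± 0.537 CPM in resistant and 18.9 ± 4.57 CPM in wild type cells (SD, n = 2 each), a ratio of 1.75 (log2 fold change 0.80, standard error 0.14; limma, adjusted p = 0.00197). Leaving out wild type replicate 1 gave a log2 fold change of 1.03, leaving out replicate 2 gave 0.56, and the call held in each. CUL2 (ENSG00000108094.16), the cullin scaffold, read 35.9 and 37.8 CPM in the resistant samples, against 42.5 and 44.2 CPM in wild type (log2 fold change -0.23, standard error 0.08; limma, adjusted p = 0.0359). That call ended without resistant replicate 1 (adjusted p = 0.233), without resistant replicate 2 (0.121), without wild type replicate 2 (0.0729) and without the trend in the variance (0.0663). VHL per CUL2 was 0.933 and 0.866 in resistant against 0.521 and 0.355 in wild type samples.

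**Figure D3:**
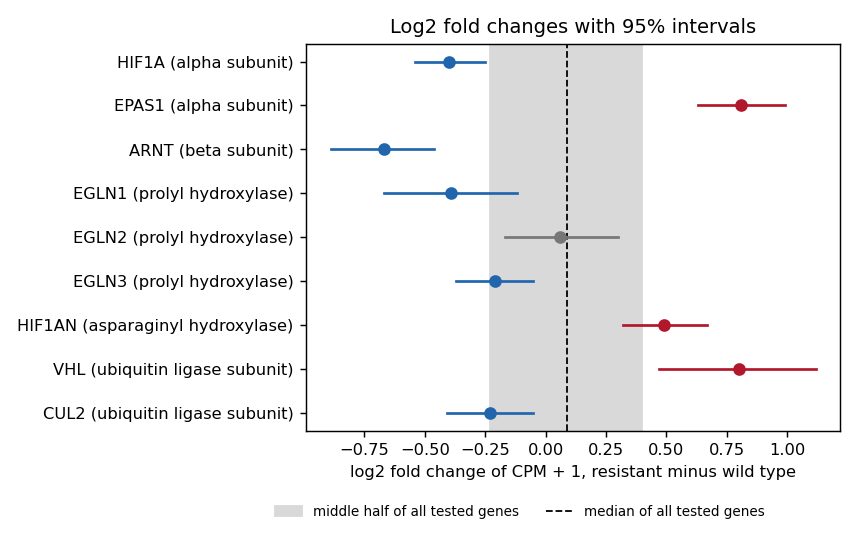
Log2 fold change of CPM + 1, resistant minus wild type (horizontal axis), of the 9 genes with 95% intervals from limma; red is higher, blue lower and grey not past the threshold, the dashed line is the median of all tested genes and the band runs between their quartiles, -0.23 and 0.40. EPAS1, VHL and HIF1AN lie right of the band and HIF1A, ARNT and EGLN1 left of it.

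In order of mean level, the resistant cells had HIF1A, HIF1AN, the shared EGLN3 row, EPAS1, CUL2, VHL, EGLN2, EGLN1 and ARNT, and the wild type cells had HIF1A, the shared EGLN3 row, HIF1AN, CUL2, EPAS1, EGLN1, EGLN2, ARNT and VHL. ARNT was thus the lowest of the 9 in resistant cells, and VHL in wild type cells. In wild type, EPAS1, EGLN1 and EGLN2 averaged 28.6, 27.8 and 26.0 CPM and their samples overlapped, while no other neighbours in the order did. In resistant cells, no pair of neighbours in this order overlapped.

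Genes beside each of the 9 were read in the same comparison, taking the 3 nearest tested genes on each side by gene start in GENCODE 29. Rows with the same values as the gene itself, which left out SPTSSA beside EGLN3, were not counted as neighbours. EGLN1, on chromosome 1, was lower while all 6 of its neighbours, in 5 distinct rows, were higher, with log2 fold changes between 0.41 and 1.01. ARNT, at another place on chromosome 1, had neighbours between -0.65 and -0.04, with 3 lower and 0 higher. Of the 6 neighbours of HIF1A on chromosome 14, 2 were higher and 0 lower, so HIF1A fell among genes at -0.04 to 0.45. EPAS1 on chromosome 2 had 2 higher neighbours and 4 not called, between -0.40 and 1.00. VHL on chromosome 3 had 2 higher neighbours, which share 1 row of values, 1 lower and 3 not called, between -0.73 and 1.52. The neighbours of EGLN2, EGLN3, HIF1AN and CUL2 lay on both sides of 0, from -0.84 to 0.87.

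**Figure D4:**
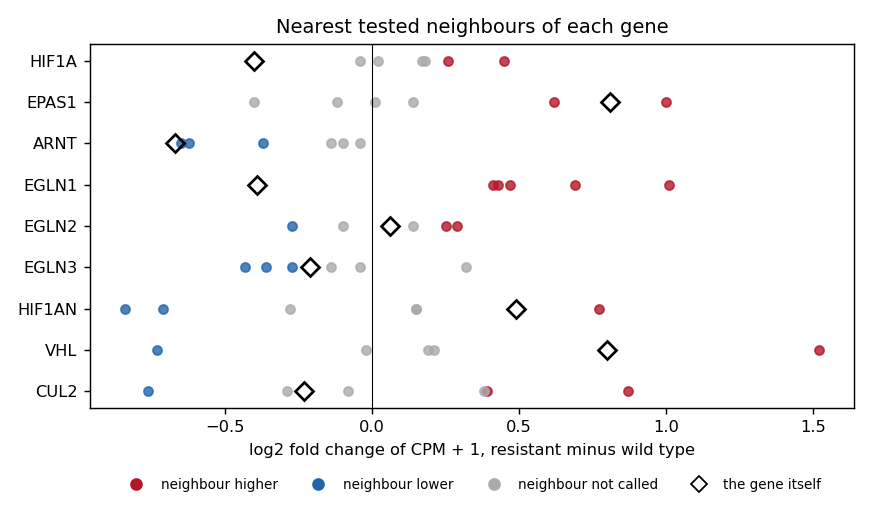
Log2 fold change of CPM + 1, resistant minus wild type (horizontal axis), of each gene (open diamond) and of its 3 nearest tested genes on each side (dots, 1 per distinct row; red higher, blue lower, grey not past the threshold). EGLN1 at -0.39 stands apart from its neighbours, which lie between 0.41 and 1.01.

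Of 30 genes that work with the HIF subunits, 24 were tested; 7 were higher and 7 lower, with a median log2 fold change of 0.00, against 0.09 over all tested genes. The share called, 58.3%, is near the 55.2% of all tested genes. With TMM factors 4 were higher and 8 lower, and without resistant replicates 1 and 2 in turn, 2 and 4 were higher and 5 and 4 lower. STUB1, a chaperone-associated ubiquitin ligase that acts on HIF1A, was 2.21 times as high, at 79.7 ± 0.757 CPM in resistant and 36.0 ± 1.21 CPM in wild type cells (SD, n = 2 each; limma, adjusted p = 1.11e-05). CITED2 and CITED4, which bind the coactivators p300 and CBP, were lower: CITED2 averaged 38.2 CPM in resistant and 54.7 CPM in wild type cells (adjusted p = 0.000681, limma), and CITED4 averaged 0.545 CPM in resistant and 4.37 CPM in wild type cells (adjusted p = 5.46e-05, limma). BHLHE41, a repressor also known as SHARP1, averaged 0.350 CPM in resistant and 2.28 CPM in wild type cells (limma, adjusted p = 0.000534). CITED4 and BHLHE41 averaged under 1 CPM in resistant cells and passed the filter on mean CPM through their wild type values. Their resistant values, 0.47 and 0.62 CPM and 0.42 and 0.28 CPM, rest on few reads. In resistant replicates 1 and 2, 1 read is about 0.047 and 0.056 CPM. None of the remaining tested subunits of the VHL ligase was called higher. ELOC, the elongin that joins VHL to the cullin, averaged 281 ± 6.76 CPM in resistant and 364 ± 0.170 CPM in wild type cells (SD, n = 2 each; limma, adjusted p = 0.00133), while ELOB (adjusted p = 0.160, limma) and the RING subunit RBX1 (adjusted p = 0.766) did not pass. ELOB passed as lower with TMM factors (adjusted p = 0.0228, limma). The coactivator genes EP300 and CREBBP did not pass either (adjusted p = 0.879 and 0.200, limma); CREBBP passed as higher without resistant replicate 2 (adjusted p = 0.0453). ELOC, ELOB, RBX1, EP300 and CREBBP are named for their place in the complexes, after their values were seen. Of the other called partners, UBE2M, UBA3, NAE1, SIAH1, SIAH2 and FBXW7 were higher, by 0.20 to 0.60 on the log2 scale. Their adjusted p went up to 0.0446 (NAE1, limma). NEDD8, OS9 and RACK1 were lower, at -0.20, -0.28 and -0.47, with adjusted p up to 0.0449 (OS9, limma). The calls of these other partners were not followed gene by gene through the alternatives.

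The EGLN enzymes and HIF1AN belong to the dioxygenases that use 2-oxoglutarate, iron and oxygen. Of 38 other members of this family tested, 8 were higher and 16 lower, with a median of -0.06; 63.2% were called, beside 55.2% of all tested genes, of which 33.5% were higher and 21.6% lower. Without resistant replicate 1, 4 were higher. Of the 4 with the smallest adjusted p, 3 modify collagen and were lower: P4HA2, a collagen prolyl hydroxylase subunit, averaged 24.7 ± 1.15 CPM in resistant and 52.5 ± 2.72 CPM in wild type cells (SD, n = 2 each; limma, adjusted p = 2.94e-05). PLOD2 and PLOD1, which hydroxylate collagen lysines, had resistant to wild type ratios of 0.452 and 0.656 (limma, adjusted p = 0.000196 and 0.000262). PLOD2 was spread in the resistant samples, at 53.5 and 74.6 CPM, against 144 and 140 CPM in wild type. P4HA2, P4HA1 and KDM3A, all lower, also stand among the HIF targets below, so the lists are not separate. The histone demethylase KDM2A was 1.77 times as high in resistant cells (limma, adjusted p = 0.000226). Of 22 genes that make or use 2-oxoglutarate, succinate and fumarate, 8 were higher and 6 lower, with a median of -0.07; 63.6% were called, beside the same 55.2%. That balance turned with scaling, to 5 higher and 9 lower with TMM or median-ratio factors and 5 and 10 with quantile normalization. Without resistant replicate 1 the counts were 3 higher and 2 lower, and without resistant replicate 2 they were 4 and 2. IDH2, the mitochondrial NADP-dependent isocitrate dehydrogenase that makes 2-oxoglutarate, averaged 4.24 ± 1.07 CPM in resistant and 15.8 ± 0.863 CPM in wild type cells (SD, n = 2 each; limma, adjusted p = 5.91e-05). D2HGDH, which oxidises D-2-hydroxyglutarate to 2-oxoglutarate, was 1.96 times as high (limma, adjusted p = 0.00202), and GLUD1, glutamate dehydrogenase, 1.30 times as high (limma, adjusted p = 0.00217). SDHA, the catalytic succinate dehydrogenase subunit, had a ratio of 0.781 (limma, adjusted p = 0.0022).

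Of 15 tested genes upstream of HIF1A, 6 were higher and 3 lower, with a median of -0.01. The share called, 60.0%, is near the 55.2% of all tested genes. Without resistant replicate 1, 4 were higher and 1 lower. TSC1, which restrains mTORC1, was 2.12 times as high in resistant cells (limma, adjusted p = 0.000104). RHEB, which activates mTORC1, and its target kinase RPS6KB1 were 1.55 and 1.48 times as high (limma, adjusted p = 0.000364 and 0.00136). DDIT4, a hypoxia-induced inhibitor of mTORC1 that also stands among the HIF targets, averaged 34.0 ± 0.707 CPM in resistant and 112 ± 8.31 CPM in wild type cells (SD, n = 2 each; limma, adjusted p = 2.30e-06).

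Genes known to be induced by HIF, set beside the sensors, were mostly lower. Of 30 tested, 23 were lower and 2 were higher, beside 21.6% lower and 33.5% higher over all tested genes. The median log2 fold change was -0.86, against 0.09 over all tested genes. The list was drawn up with an earlier result of this kind from these data known, so it is no independent evidence of its direction. PGK1, DDIT4, BNIP3 and BNIP3L, the 4 targets with the smallest adjusted p, had log2 fold changes from -1.91 to -1.46. The whole list ran from -2.24 to 0.89. Among the HIF subunits and sensors ARNT had the lowest value, at -0.67. Because the 4 targets were picked by their p-values, their sizes cannot be weighed against those of the subunits and sensors. Some lower targets fell less than ARNT, such as ALDOA (-0.55) and P4HA1 (-0.38). EGLN1, itself a HIF target, had a log2 fold change of -0.39, which was -0.22 without wild type replicate 1. Whether its change is tied to that of the targets was not tested.

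**Figure D5:**
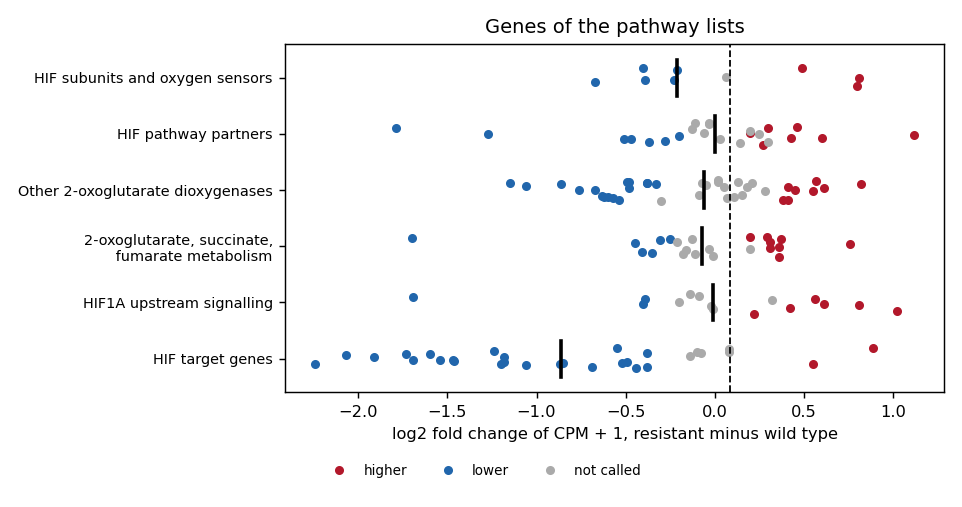
Log2 fold change of CPM + 1, resistant minus wild type (horizontal axis), of each tested gene (points; vertical scatter within a row only separates them) in the 9 HIF subunits and sensors and in 5 pathway lists; red is higher, blue lower and grey not past the threshold, black bars are medians and the dashed line is the median of all tested genes. The HIF target genes lie furthest left, with a median of -0.86.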

How the data were processed

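The deposited table holds CPM values, 1 column per sample: reads per gene scaled by the authors to the same total, per the file headers; each column sum was checked. Per the submitters' processing notes, BWA 0.5.9, hg19 and mm9 are listed, with no role given; counting tool, annotation and strand use are not stated. Low values lay within 0.005 CPM, the rounding of the table, of a whole multiple of 1 read in each column, which gave the depth estimates. Within 0.1 of a read, 92.5% did so in resistant replicate 1 and 100.0% in the others; 95% in each was required for a count model, so none was fitted.

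Resistant was compared with wild type with limma 3.58.1 in R 4.3.3 (eBayes with trend) on log2(CPM + 1) for the 12587 genes whose mean reached 1 CPM. P-values were adjusted together by Benjamini-Hochberg and called under 0.05; fold changes on this scale understate those of low genes. The fit was also run on simulated data. No outcome is given here, so that run lends no weight to the results. The 14 alternatives varied pseudocount, filter, scaling, variance model, replicate block and the samples included. Gene starts, overlaps and neighbours came from GENCODE 29 (99.3% of tested identifiers matched), and promoters from RefSeq (GRCh38.p14). Named were all 9 genes and, in each pathway list, up to 4 with the smallest adjusted p, with exceptions stated in the text. Members and lists were chosen with earlier results of these data known.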

Additional observations from a re-analysis of the deposited data

How the results depend on the processing

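The calls of HIF1A, EPAS1, ARNT, VHL and HIF1AN held in all 14 alternatives, with adjusted p up to 0.0328 (HIF1A). EGLN1 passed in 11, and the EGLN3 row and CUL2 in 10. EGLN2 turned to -0.04 with TMM factors, -0.03 with median-ratio factors, -0.07 with quantile normalization and ranged from -0.06 (without wild type replicate 2) to 0.18 when 1 sample was left out. EP300, RBX1 and VIM, none of them called, also changed sign: EP300 to -0.07, -0.06 and -0.10 and VIM to -0.06 and -0.06 with TMM, median-ratio and, for EP300, quantile normalization. With 1 sample left out, EP300 ranged from -0.16 to 0.21, RBX1 from -0.10 to 0.04 and VIM from -0.01 to 0.09. Without the variance trend, 3 of the 9 genes were lower. With TMM and with median-ratio factors, 4 partners and 5 metabolism genes were higher; with quantile normalization 5 metabolism genes were higher and 10 lower. The cause of these moves beyond the scaling itself was not tested.

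Leaving out 1 sample at a time leaves a group with 1 sample, assumed to vary like the other group. This gave 2556 to 4316 genes higher and 1636 to 2787 lower in all; 2 to 4 of the 9 genes lower, with 3 higher each time; 2 to 7 partners higher and 4 to 7 lower; 4 to 9 other dioxygenases higher; 3 to 8 metabolism genes higher and 2 to 8 lower; and 1 to 4 upstream genes lower. The lowest counts came without resistant replicate 1 or 2 in each of these. Of the other named genes run through the alternatives, GLUD1 lost its call (adjusted p = 0.053, without resistant replicate 2).

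Same-numbered samples did not deviate together (correlation -0.079). Since each group has 2 samples, this value cannot show whether same-numbered samples were handled together, and no label says so. With the replicate number as a block, 4320 genes were higher and 2778 lower, and 3 and 5 of the 9 genes; no call of the 9 genes changed. With 2 samples per group the precision of each value is limited.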
